A study of Mus musculus with 18 samples.

Results

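Inhibitory immune receptors restrain the cells that carry them when a ligand binds, and the 10 genes described here encode receptors of that kind (Sirpa, Vsir, Havcr2, Lilrb4a, Pirb and Cd300a) and ligands of such receptors (Cd47, Cd274, Pdcd1lg2 and Lgals9). They were taken by gene symbol out of 33235 genes in each of 2 tables of mouse liver mRNA, 1 table per diet. The genes were chosen from values of these same comparisons, so their levels, fold changes and counts past a threshold describe them and carry no test. 11 rows held a member's symbol, because Lilrb4a stood on 2 rows: ENSMUSG00000112148 held the reads reported below, and ENSMUSG00000062593 had no more than 1 read in any library and is not considered further. All 10 genes passed the filter on low values in both tables.

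The treated mice received GalNAc-Mdm2ASO, an antisense oligonucleotide against Mdm2, and carry the genotype label MDM2 knockdown. Their counterparts received GalNAc-conASO, a control oligonucleotide, and are labelled WT. GalNAc is a sugar taken up through the asialoglycoprotein receptor of hepatocytes, and Mdm2 encodes the ubiquitin ligase that keeps p53 low. All mice were fed HFHC, a diet given by this abbreviation in the labels, or CDAHFD, usually a high-fat diet that lacks choline and holds amino acids in defined amounts. The groups were GalNAc-Mdm2ASO (3 libraries) and GalNAc-conASO (4 libraries) on HFHC, and GalNAc-Mdm2ASO (5) and GalNAc-conASO (5) on CDAHFD. On HFHC, Mdm2ASO replicates 6 and 7 held the same value in every gene and were counted as 1 library, called 6-7 here. Strain, sex, age, dose and time on diet are not given in the sources used here, nor is whether replicates were separate mice, so p-values measure the spread between these samples.

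As background, these molecules let tissues and other cells hold back immune attack. CD47 on most cells binds SIRPα (Sirpa) on macrophages and other myeloid cells and blocks engulfment. PD-L1 (Cd274) and PD-L2 (Pdcd1lg2) bind PD-1 (Pdcd1) on lymphocytes. TIM-3 (Havcr2) is a receptor of T cells and myeloid cells, with galectin-9 (Lgals9) among its ligands. VISTA (Vsir) sits on myeloid cells and T cells and has been described as a p53-induced gene. Lilrb4a, Pirb and Cd300a encode myeloid receptors whose cytoplasmic tails carry inhibitory tyrosine motifs (ITIMs). Phosphorylated ITIMs recruit the phosphatases SHP-1 (Ptpn6), SHP-2 (Ptpn11) and SHIP-1 (Inpp5d). In liver such receptors mark mainly Kupffer cells, recruited monocytes and other leukocytes.

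Libraries held 17.8 to 18.8 M reads on HFHC and 22.4 to 31.5 M reads on CDAHFD. Levels below are normalized counts, that is read counts per gene divided by 1 factor per library, and comparisons stay within a diet because the tables were normalized separately. A gene was called when its Benjamini-Hochberg adjusted p in limma-trend, over all genes tested, was under 0.05. Mdm2 itself averaged 362 ± 58.2 in Mdm2ASO livers and 945 ± 25.6 in conASO livers on HFHC (SD, n = 3 and 4), and 647 ± 124 and 1565 ± 87.7 on CDAHFD (SD, n = 5 each). Its log2 fold change was -1.39 ± 0.11 (SE) with an adjusted p of 1.10e-05 on HFHC, and -1.29 ± 0.11 with an adjusted p of 3.07e-05 on CDAHFD (limma). Cdkn1a, a p53 target, rose by 0.98 on HFHC (adjusted p = 0.00256) and by 0.78 on CDAHFD (adjusted p = 0.00873), both on the log2 scale. Markers of hepatocytes were abundant in every library, and the summed level of 10 of them was 1487803 to 2095980.1 in Mdm2ASO and 1230583 to 1552587 in conASO livers on HFHC, and 1851577 to 2215826 and 1647944 to 2410256 on CDAHFD.

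Promoter windows of 300 bases, 250 before the start site and 50 after it, were present in the RefSeq promoter table (GRCm38.p6) for 8 of the genes, with 9 windows in all. Sirpa and Lilrb4a have no entry there. The windows of Vsir, Pirb and Lgals9 are shown because they belong to the gene described as p53-induced, the member with the steepest change on HFHC and the member that did not pass there. Each stretch runs 5′ to 3′ over 250 bases before the start site and the 30 bases from it on, and capitals mark matches to the motifs searched.

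In GRCm38.p6, Vsir is given at chr10:60346601-60346880 on the plus strand, Pirb at chr7:3720353-3720632 on the minus strand and Lgals9 at chr11:78984895-78985174 on the minus strand.
Vsir: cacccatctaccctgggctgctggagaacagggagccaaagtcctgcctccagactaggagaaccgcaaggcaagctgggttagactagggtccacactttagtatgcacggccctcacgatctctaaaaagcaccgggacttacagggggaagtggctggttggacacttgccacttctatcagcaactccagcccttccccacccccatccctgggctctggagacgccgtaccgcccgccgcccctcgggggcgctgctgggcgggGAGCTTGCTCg
Pirb: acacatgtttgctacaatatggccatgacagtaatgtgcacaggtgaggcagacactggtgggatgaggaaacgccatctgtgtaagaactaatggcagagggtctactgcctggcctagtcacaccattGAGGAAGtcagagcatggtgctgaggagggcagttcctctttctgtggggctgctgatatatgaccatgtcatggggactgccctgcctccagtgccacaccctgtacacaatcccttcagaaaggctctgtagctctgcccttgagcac
Lgals9: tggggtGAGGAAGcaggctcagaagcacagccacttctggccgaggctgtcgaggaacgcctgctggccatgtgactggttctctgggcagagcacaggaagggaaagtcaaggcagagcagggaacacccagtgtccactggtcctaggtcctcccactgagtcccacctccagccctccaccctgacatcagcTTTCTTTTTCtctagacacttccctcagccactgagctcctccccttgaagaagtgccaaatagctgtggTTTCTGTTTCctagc

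The capitals in Vsir mark a match to the p53 half-site consensus, which lies 19 to 28 bases after the start site. Such a match stood in 1 of the 9 windows and in 8.36% of the 32851 windows in the table. The capitals in Pirb, and the first ones in Lgals9, mark GAGGAAG, the only form of the site of the myeloid factor PU.1 that was searched. This string, read on both strands, stood in 4 of the 9 windows (Havcr2, Lgals9, Cd300a and Pirb) and in 13.6% of all windows. The other 2 stretches of capitals in Lgals9 match, on the strand opposite to the one printed, the interferon-stimulated response element, searched as 2 copies of GAAA with any 2 bases between them, which occurred in 1 of the 9 windows and in 3.44% of all. The interferon-γ activation site TTCNNNGAA occurred in 0 of the 9 windows, including that of Cd274, and in 8.3% of all. No match overlapped another in these windows, and a match or its absence describes letters only.

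On HFHC, 9 of the 10 genes were higher in Mdm2ASO than in conASO livers and passed the threshold, with the Mdm2ASO libraries above every conASO library. Lgals9 was the exception. Over all 17441 genes tested, 16.8% were called higher and 13.8% lower, and 20.7% lay above and 18% below without overlap between the groups. The median log2 fold change was 2.01 over the 10 genes and -0.0061 over all genes. Because the genes were chosen from this contrast, nothing is read from these counts. The plot of levels by library shows the 9 genes as a step between the groups on HFHC, and on CDAHFD a step, downward, in Cd47 only.

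**Figure D1:**
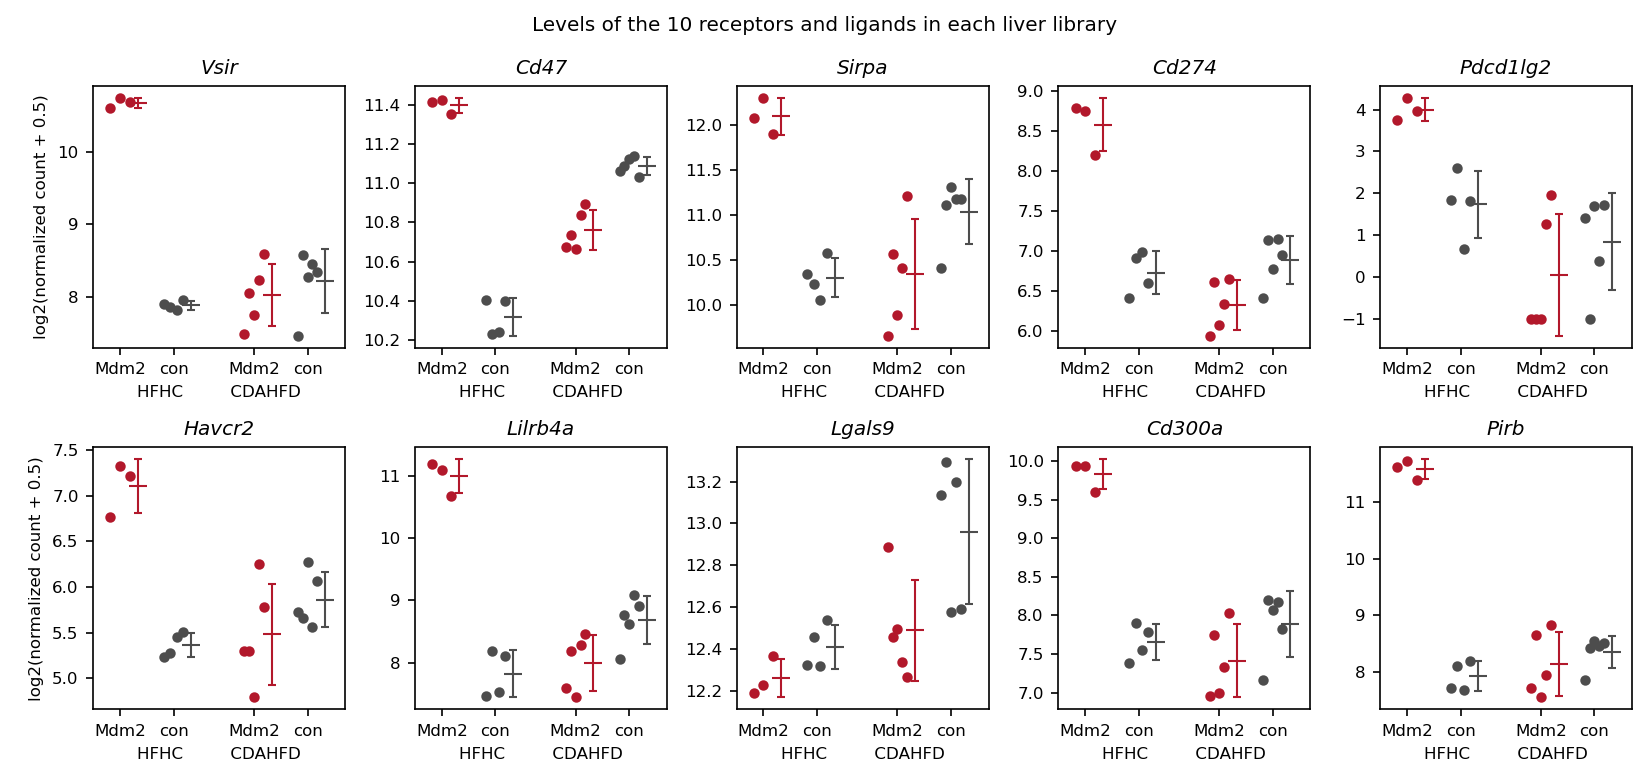
Each panel plots log2(normalized count + 0.5) of 1 gene, a point per library and the group mean ± SD beside it, for Mdm2ASO (red, left) and conASO (grey, right) livers on HFHC and then on CDAHFD. On HFHC the 3 Mdm2ASO points lie above the 4 conASO points for every gene except Lgals9, whereas on CDAHFD the groups overlap except for Cd47, where the Mdm2ASO points are the lower ones. Heights are not comparable between diets.

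Among the ligand and receptor that block engulfment, Cd47 had normalized counts of 2726, 2747 and 2617 in Mdm2ASO livers, against 1352, 1200.1, 1209 and 1349 in conASO livers. The Mdm2ASO libraries were on average 2.11 times the conASO mean, with little spread in either group, and the log2 fold change was 1.08 ± 0.074 (SE). Its receptor gene Sirpa had 4322, 5029.8 and 3810 in Mdm2ASO livers, against 1297, 1199, 1059 and 1520 in conASO livers. The groups lay far apart, with a log2 fold change of 1.79 ± 0.13. Within a library, Cd47 was 54.6 to 68.7% of Sirpa by normalized count in Mdm2ASO livers and 88.8 to 114% in conASO livers.

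The ligands of PD-1 are encoded next to each other on chromosome 19 and were counted at very different depth. Cd274 had 443, 430.3 and 292 in Mdm2ASO livers, against 84.6, 120.1, 126 and 95.9 in conASO livers. Every Mdm2ASO library was above the highest conASO library, replicate 10 being the lowest of them, and the log2 fold change was 1.85 ± 0.19. Pdcd1lg2 was scarce, with 13.0, 18.9 and 15.2 in Mdm2ASO livers, against 3.10, 5.61, 1.08 and 3.00 in conASO livers. In reads, that is 49 over the Mdm2ASO libraries (exact 95% interval 36.3 to 64.8) and 12 over the conASO libraries (6.2 to 21), intervals that cover counting error only. Its log2 fold change of 2.27 ± 0.49 had the widest error of the 10 genes and rests on few reads.

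The receptor TIM-3 was higher in Mdm2ASO livers, and its ligand galectin-9 was not. Havcr2 had 108, 159.8 and 148 in Mdm2ASO livers, against 37.2, 38.2, 43.1 and 45.0 in conASO livers. The groups did not overlap and the log2 fold change was 1.73 ± 0.18. Lgals9 had 4673, 4792 and 5276 in Mdm2ASO livers, against 5118, 5625, 5109.5 and 5942 in conASO livers. These groups overlapped, and the log2 fold change of -0.15 ± 0.088 did not pass the threshold. Over the 14 alternatives run, that value ranged from -0.20 to -0.066.

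The other receptors are known mainly from myeloid cells, and 3 of them had the largest log2 fold changes of the 10 genes. Vsir had 1549, 1701 and 1642 in Mdm2ASO livers, against 239, 232, 225 and 249 in conASO livers. Both groups were tight, and the log2 fold change was 2.78 ± 0.076. Lilrb4a, an ITIM receptor of mast cells and myeloid cells, had 2342, 2180.1 and 1638 in Mdm2ASO livers, against 177, 292, 186 and 275 in conASO livers. Its log2 fold change was 3.16 ± 0.20. The Mdm2ASO mean was 8.84 times the conASO mean, and the groups lay far apart. Pirb, which binds major histocompatibility complex (MHC) class I molecules, had 3135, 3389.8 and 2671 in Mdm2ASO livers, against 212, 276, 206 and 295 in conASO livers. That was the steepest change of the 10, 12.4 times by mean and 3.64 ± 0.14 on the log2 scale. Cd300a, which binds phosphatidylserine on dying cells, had 984, 981 and 778 in Mdm2ASO livers, against 167, 238, 188 and 219.9 in conASO livers. No library of either group came near the other, and the log2 fold change was 2.17 ± 0.14.

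**Figure D2:**
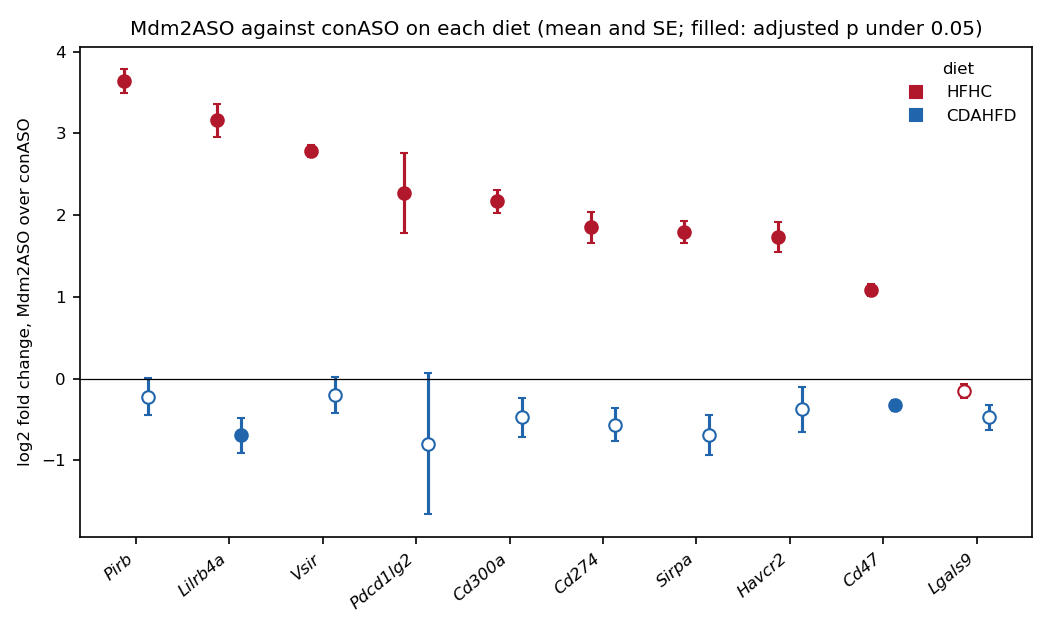
Points give the log2 fold change of Mdm2ASO over conASO with its SE for each gene on HFHC (red) and CDAHFD (blue), ordered by the HFHC value, and filled points passed an adjusted p of 0.05. HFHC values run from 3.64 for Pirb to -0.15 for Lgals9, and CDAHFD values from -0.80 for Pdcd1lg2 to -0.20 for Vsir.

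Markers of leukocytes moved with these genes on HFHC. All 10 pan-leukocyte markers rose, by 1.93 to 3.80 on the log2 scale, and their summed level was 30604 to 35378 in Mdm2ASO and 4099 to 5392 in conASO livers. Ptprc (CD45), the surface phosphatase of all leukocytes, averaged 4012 ± 475 in Mdm2ASO and 455 ± 71.6 in conASO livers (SD, n = 3 and 4; log2 fold change 3.15 ± 0.14, adjusted p = 3.35e-07, limma). 10 of 10 neutrophil markers, 6 of 10 nonclassical and 5 of 8 classical monocyte markers rose, with 1 nonclassical monocyte marker lower. Of Kupffer cell markers 3 of 10 rose, of dendritic cell markers 5 of 8, of T and NK cell markers 4 of 11 and of B cell markers 6 of 7. All 7 red cell markers and 5 of 8 sinusoidal endothelial markers rose as well, and 0 of 10 hepatocyte markers passed in either direction. Summed levels in Mdm2ASO and conASO livers were 2367 to 3371 and 261 to 504 for neutrophils, 14699 to 20447 and 8323 to 12697 for Kupffer cells, and 11572 to 31522 and 2604 to 5422 for red cells. They were 22926 to 25015 and 6359 to 8097 for nonclassical monocytes, 23274 to 30717 and 20659.7 to 24095 for classical monocytes, and 5212 to 6145 and 505 to 766 for dendritic cells. Single genes held the largest part of each of these sums, given here as means in Mdm2ASO and conASO livers. For classical monocytes it was Fn1 (26673 and 21542), which was not called, and for dendritic cells Itgax (5041 and 254), called higher. For nonclassical monocytes it was Fcgr4 in Mdm2ASO livers (11225 and 190, called higher) and Cd36 in conASO livers (3402 and 5154, called lower). B cell sums were 2378 to 4216 and 448 to 1305, T and NK cell sums 422 to 680 and 225 to 384, and endothelial sums 5407 to 5951 and 3791 to 4392. No marker was at 0 in a whole group on HFHC. Transcripts of mitochondrial DNA took 3.66 to 4.43% of reads in Mdm2ASO and 6.08 to 7.55% in conASO livers. The part of any of these in the members' values was not tested, and in whole liver more cells of a type cannot be told apart from more RNA per cell.

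Set against the mean log2 level of the 10 pan-leukocyte markers of the same library, the members no longer moved as a block on HFHC. Pirb alone stood higher relative to the markers in every Mdm2ASO library, by 0.71 on the log2 scale on average. Vsir (-0.15), Lilrb4a (0.23) and Pdcd1lg2 (-0.66) overlapped between the groups. Relative to the markers, Sirpa (-1.14), Cd274 (-1.08), Havcr2 (-1.19) and Cd300a (-0.76) stood lower in every Mdm2ASO library, though their own levels were higher. Cd47 (-1.85) and Lgals9 (-3.08) had the most negative differences. Cell types other than leukocytes can express both genes, and the part of such cells in these values was not tested. The markers themselves differed in their rise, from 1.93 for Lcp1 to 3.80 for Itgb2. The log2 fold changes of Pirb (3.64), Lilrb4a (3.16), Vsir (2.78), Pdcd1lg2 (2.27) and Cd300a (2.17) lay within that range. Those of Cd274 (1.85), Sirpa (1.79) and Havcr2 (1.73) lay just under it. The relative values of Pirb and Cd300a therefore do not set them apart from single leukocyte markers. These relative values reuse the contrast that chose the genes and are descriptive.

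**Figure D3:**
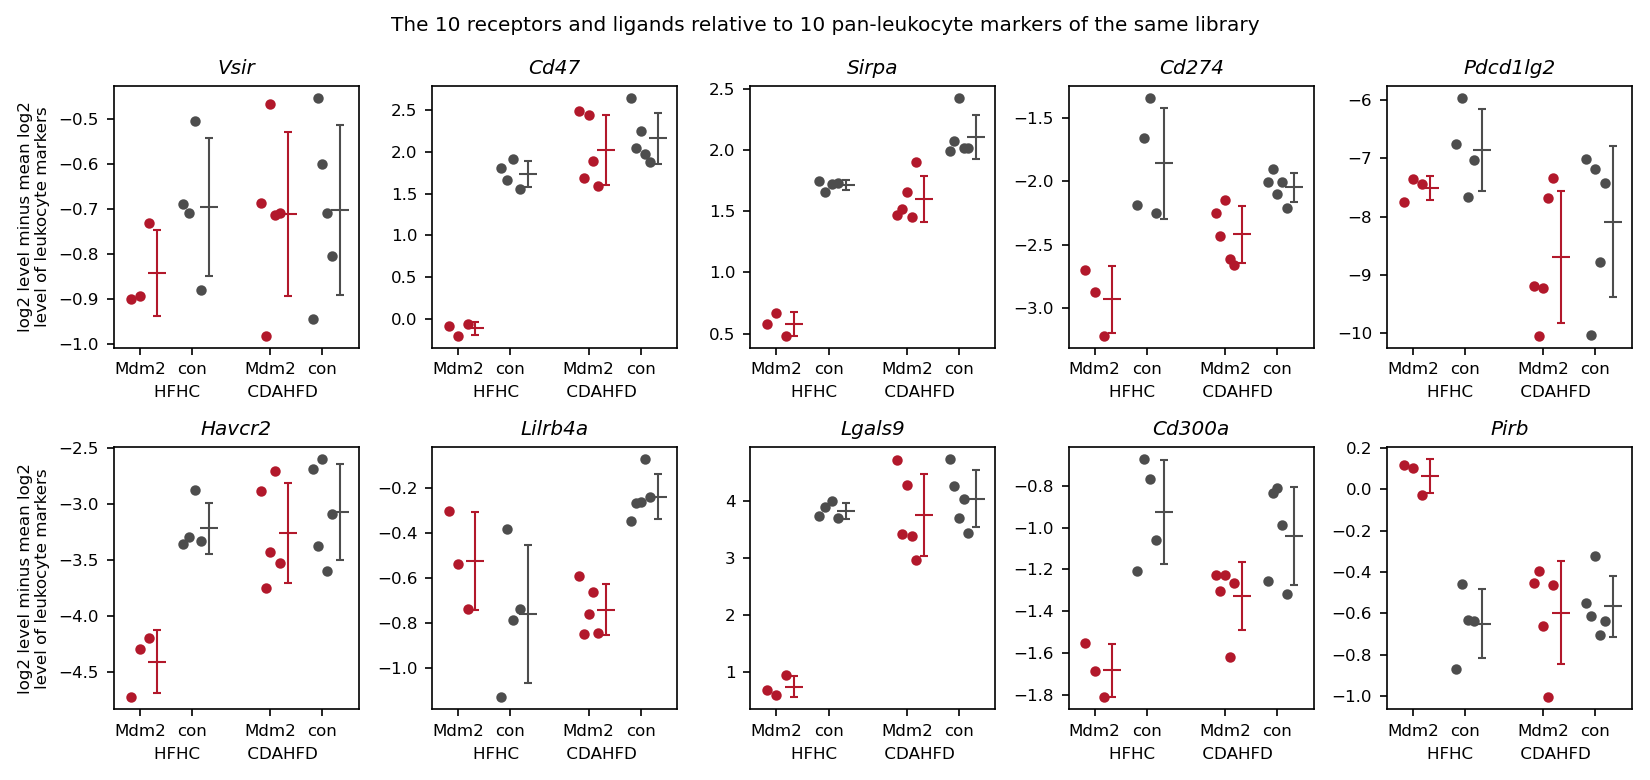
Each panel plots the log2 level of 1 gene minus the mean log2 level of 10 pan-leukocyte markers in the same library, a point per library with the group mean ± SD, for Mdm2ASO (red, left) and conASO (grey, right) livers on each diet. On HFHC the Mdm2ASO points are the higher ones for Pirb, overlap conASO for Vsir, Lilrb4a and Pdcd1lg2, and are the lower ones for the other 6 genes, and on CDAHFD they are the lower ones for Sirpa and Lilrb4a.

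On CDAHFD the picture was different. 2 of the 10 genes, Cd47 and Lilrb4a, were lower in Mdm2ASO than in conASO livers past the threshold, 0 were higher, and the estimate of every member lay below 0, with a median of -0.47 on the log2 scale against -0.0021 over all genes. Over the 16803 genes tested, 6.86% were called lower and 6.12% higher, while 5.62% lay below and 4.95% above without overlap. The count of 2 members depends on single libraries. It was 1 (Cd47) without Mdm2ASO replicate 7 or 8 or without conASO replicate 2 or 4, and 4 without conASO replicate 1, when Sirpa and Cd274 passed too. Without Mdm2ASO replicate 10 it was 3, with Sirpa added. Lgals9 took the place of Lilrb4a without Mdm2ASO replicate 6 or conASO replicate 3 or 5.

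Cd47 had 1632, 1703, 1625, 1826 and 1904 in Mdm2ASO livers, against 2137, 2172, 2233, 2253 and 2091 in conASO livers. Every Mdm2ASO library lay below every conASO library, the only such member on this diet, at a log2 fold change of -0.33 ± 0.072. Its receptor Sirpa had 805, 1509, 943, 1356 and 2354 in Mdm2ASO livers, against 1356, 2209, 2529, 2317 and 2307 in conASO livers. The groups overlapped through Mdm2ASO replicate 10 and conASO replicate 1, which was far under the other conASO libraries, and the log2 fold change was -0.69 ± 0.24. Lilrb4a had 193, 293, 176, 312 and 352 in Mdm2ASO livers, against 268, 436, 392, 544 and 480.5 in conASO livers. Here conASO replicate 1 again lay lowest of its group, and the groups overlapped, with a log2 fold change of -0.69 ± 0.22. Cd274 had 60.7, 97.3, 66.9, 80.4 and 99.5 in Mdm2ASO livers, against 84.8, 139.6, 109, 142 and 122 in conASO livers. All but conASO replicate 1 exceeded the Mdm2ASO libraries, with a log2 fold change of -0.56 ± 0.20.

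Pdcd1lg2 was near the floor of detection on CDAHFD, with 0 reads in 3 of 5 Mdm2ASO libraries and in 1 of 5 conASO libraries. Over a group there were 5 reads (exact 95% interval 1.62 to 11.7) in Mdm2ASO and 9 (4.12 to 17.1) in conASO livers, so no difference was detectable at this depth. Lgals9 had 7569, 5619, 5778, 5171 and 4919 in Mdm2ASO livers, against 9008, 10055, 6108, 9386 and 6174 in conASO livers. conASO replicates 3 and 5 lay among the Mdm2ASO libraries and the other conASO replicates above all of them, with a log2 fold change of -0.47 ± 0.16. Havcr2 had 38.7, 38.7, 27.2, 75.6 and 54.3 in Mdm2ASO livers, against 52.6, 49.9, 77.1, 46.7 and 66.4 in conASO livers. Its groups overlapped widely, with a log2 fold change of -0.38 ± 0.27. Vsir had 180.1, 267, 215, 302 and 386 in Mdm2ASO livers, against 177, 383, 310.1, 349.6 and 325 in conASO livers. Apart from conASO replicate 1, the conASO libraries were among the higher ones, at a log2 fold change of -0.20 ± 0.22. Pirb had 212, 401, 188, 246 and 457 in Mdm2ASO livers, against 233, 342, 376, 351 and 365 in conASO livers. Mdm2ASO livers covered a wider range than conASO livers, from under to over them, and the log2 fold change was -0.22 ± 0.23. Cd300a had 124, 214, 127, 161 and 262 in Mdm2ASO livers, against 143, 293, 268, 288 and 227 in conASO livers. Its log2 fold change was -0.47 ± 0.24, again with overlap between the groups.

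On CDAHFD 0 of the 10 pan-leukocyte markers passed the threshold in either direction, with log2 fold changes of -0.49 to 0.0066. Their summed level was 3889.5 to 7986 in Mdm2ASO and 4681 to 7381 in conASO livers. Ptprc averaged 562 ± 203 in Mdm2ASO and 533 ± 80.3 in conASO livers (SD, n = 5 each), a log2 fold change of 0.0066 ± 0.21 with an adjusted p of 0.988 (limma). Relative to the 10 markers of the same library, Sirpa (-0.51) and Lilrb4a (-0.50) were lower in every Mdm2ASO library than in every conASO library. The other members overlapped on this scale. Kupffer cell markers had summed levels of 7563 to 9184 in Mdm2ASO and 9461 to 10846 in conASO livers. The largest part of these sums was C6, which averaged 4077 and 4813 and was not called. Of the 10 markers 1 was called lower and 0 higher, against 6.86% and 6.12% of all genes. Their log2 fold changes ran from -1.21 to 1.22, with a median of -0.20. Mitochondrial transcripts took 5.73 to 12.4% of reads in Mdm2ASO and 6.32 to 8.43% in conASO livers. Their part in these values was not tested.

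The effects on the 2 diets were set against each other in the 16333 genes tested on both diets, as the log2 fold change on CDAHFD minus that on HFHC. The value was negative and past the threshold for 9 of the 10 genes, all except Lgals9, against 13.6% of all genes called negative and 9.83% called positive. For the same reason as above, this is a description. Pirb differed by -3.86 ± 0.33 (SE) on the log2 scale, Lilrb4a by -3.85 ± 0.34 and Vsir by -2.98 ± 0.30. The values were -3.07 for Pdcd1lg2, -2.65 for Cd300a, -2.49 for Sirpa, -2.41 for Cd274, -2.11 for Havcr2, -1.41 for Cd47 and -0.32 for Lgals9. The Pdcd1lg2 value did not hold under many alternatives: 8 genes passed, without Pdcd1lg2, with a pseudocount of 0.1, in edgeR on the recovered reads, with the replicate block, and when any 1 of the Mdm2ASO libraries on HFHC, Mdm2ASO replicate 6, 7 or 8 on CDAHFD, conASO replicate 1, 4 or 5 on HFHC, or conASO replicate 1, 3, 4 or 5 on CDAHFD was left out.

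Per kilobase of exonic length, the order of the genes was read within each group. Lgals9 was the most abundant in all 4 groups, with 2299 ± 149 normalized counts per kb in Mdm2ASO and 2549.7 ± 191 in conASO livers on HFHC (SD, n = 3 and 4). In Mdm2ASO livers on HFHC the order went on with Sirpa at 893 ± 125 and Pirb at 686 ± 81.5 per kb, each apart from the next. Cd47 followed at 429.6 ± 11.1 per kb. Lilrb4a at 393 ± 70.6 overlapped both Cd47 above it and Vsir at 325 ± 15.2 below it. Cd300a, Cd274, Havcr2 and Pdcd1lg2 ended the order at 193 ± 24.9, 107 ± 23.1, 50.9 ± 9.88 and 8.00 ± 1.53, without overlap. In conASO livers on HFHC, Sirpa followed at 258 ± 39.5 and Cd47 at 204 ± 13.5. Pirb, Vsir, Lilrb4a and Cd300a were next at 55.3 ± 10.1, 47.2 ± 2.00, 44.4 ± 11.4 and 42.9 ± 6.70 per kb, each overlapping its neighbour. Cd274, Havcr2 and Pdcd1lg2 closed the order at 29.5 ± 5.44, 15.0 ± 1.39 and 1.63 ± 0.948, each apart from the next. Pirb thus stood above Cd47 in Mdm2ASO livers and below it in conASO livers, without overlap in either group. On CDAHFD the order was Lgals9, Sirpa, Cd47 and then the same 4 receptors in both groups, with Sirpa at 284 ± 124 and Cd47 at 277 ± 19.6 in Mdm2ASO livers, which overlapped, and 436 ± 92.7 and 347 ± 10.6 in conASO livers, which overlapped too. From Sirpa down to Havcr2, all neighbours on CDAHFD overlapped in both groups except Cd47 and the receptor under it, and Pdcd1lg2 was last at 0.541 ± 0.788 in Mdm2ASO and 0.868 ± 0.636 in conASO livers.

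Other genes of the pathway were taken from lists drawn up by known role but with earlier results of these data known, with 87 of 90 genes found in the tables. Each gene's test is from limma-trend with Benjamini-Hochberg adjustment over all genes tested, and the counts per list are no independent evidence of a direction. On HFHC 51 of the 87 rose and 7 fell, against 16.8% and 13.8% of all genes. The median log2 fold change was 1.30 over the lists and -0.0061 over all genes. The leukocyte markers given above were higher in the same libraries, and their part in these counts was not tested.

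**Figure D4:**
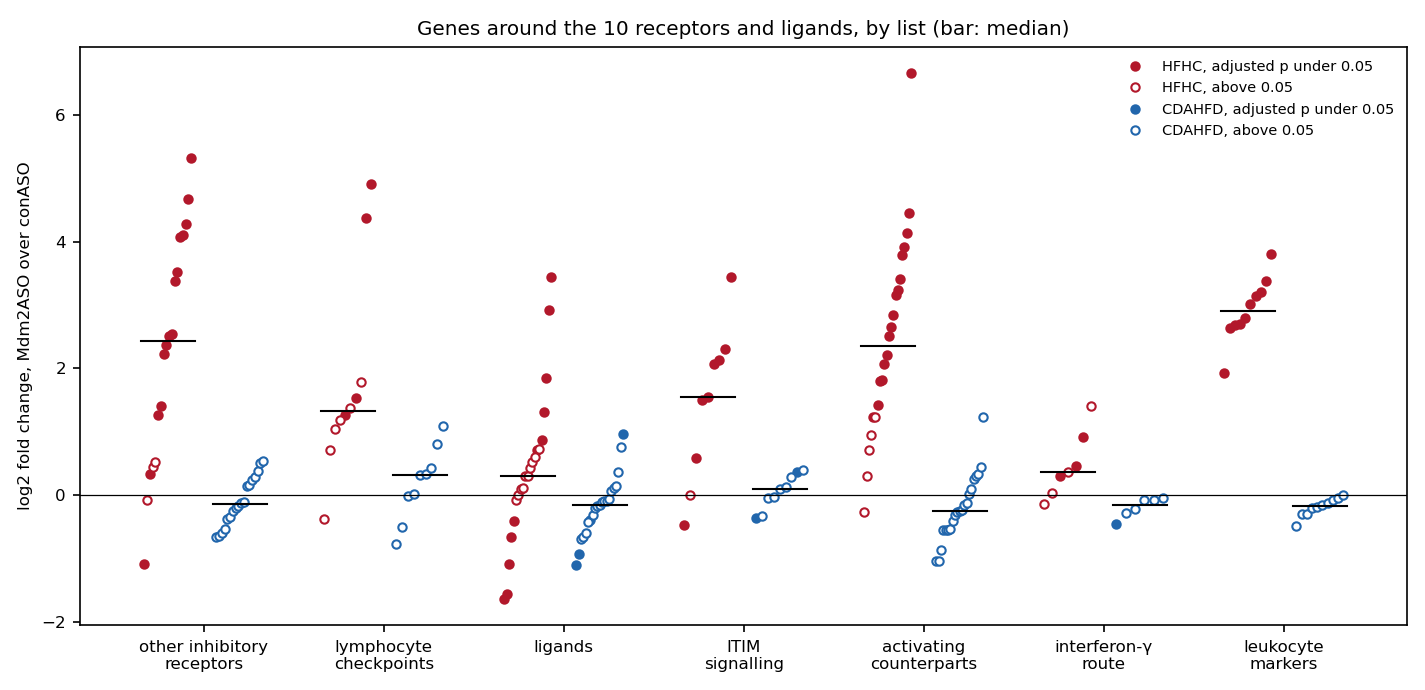
Each point is the log2 fold change of Mdm2ASO over conASO of 1 gene, by list, on HFHC (red, left of each pair) and CDAHFD (blue, right), filled where the adjusted p was under 0.05, with the list median as a bar. On HFHC most receptors, signalling genes and activating counterparts lie above 0 beside the leukocyte markers, and on CDAHFD the list medians lie between -0.25 and 0.31.

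Of 18 other inhibitory receptors, 14 rose on HFHC, 1 fell and 3 did not pass, with a median log2 fold change of 2.44. Means below are ± SD with n = 3 Mdm2ASO and 4 conASO libraries. Cd300lf, a lipid-binding ITIM receptor of the Cd300 family, averaged 3452 ± 340.3 in Mdm2ASO and 87.9 ± 21.2 in conASO livers (log2 fold change 5.32 ± 0.18, adjusted p = 1.29e-07). In normalized counts, Cd300lf was 311 to 463% of Cd300a in Mdm2ASO libraries and 35.8 to 50% in conASO libraries. Lair1, a collagen receptor of leukocytes, averaged 574 ± 49.5 in Mdm2ASO and 110 ± 4.92 in conASO livers (log2 fold change 2.38 ± 0.10, adjusted p = 3.07e-07). Clec4a2, a C-type lectin with an ITIM, averaged 487 ± 55.4 in Mdm2ASO and 46.7 ± 6.73 in conASO livers (log2 fold change 3.37 ± 0.15, adjusted p = 4.06e-07). Lilrb4b, the near-identical neighbour of Lilrb4a that lacks the ITIMs, averaged 5132 ± 531 in Mdm2ASO and 309.9 ± 65.9 in conASO livers (log2 fold change 4.07 ± 0.16, adjusted p = 2.08e-07). The list holds it by its name, and how reads were split between it and Lilrb4a is uncertain. Its normalized counts were 236 to 277% of those of Lilrb4a in Mdm2ASO libraries and 120 to 154% in conASO libraries. The gene that fell was Siglecf, a receptor of eosinophils and some macrophages, at 4.78 ± 0.759 in Mdm2ASO and 10.8 ± 2.28 in conASO livers (log2 fold change -1.08 ± 0.35, adjusted p = 0.0414), and Ceacam1, Cd22 and Cd5 did not pass. The Siglecf call was lost without any 1 of the Mdm2ASO libraries, without conASO replicate 1, 4 or 5, with no filter and in DESeq2, its adjusted p ranging from 0.0116 to 0.116. Siglecf, Cd200, Nectin2, Pvr and the genes that did not pass here and below were chosen for naming after their values were seen.

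Of 10 lymphocyte checkpoint receptors, 4 rose and 0 fell on HFHC. Cd244a, a receptor of NK cells and myeloid cells for CD48, averaged 744 ± 65.8 in Mdm2ASO and 24.3 ± 2.65 in conASO livers (log2 fold change 4.91 ± 0.14, adjusted p = 7.18e-08). Pdcd1, the PD-1 receptor that binds the products of Cd274 and Pdcd1lg2, averaged 173 ± 25.1 in Mdm2ASO and 9.17 ± 5.78 in conASO livers (log2 fold change 4.37 ± 0.45, adjusted p = 8.77e-05). Btla, a receptor for HVEM (Tnfrsf14) on lymphocytes, averaged 78.8 ± 14.6 in Mdm2ASO and 26.8 ± 3.47 in conASO livers (log2 fold change 1.53 ± 0.21, adjusted p = 4.97e-04). Cd160, another receptor for HVEM, averaged 14.3 ± 2.02 in Mdm2ASO and 6.03 ± 2.88 in conASO livers (log2 fold change 1.26 ± 0.39, adjusted p = 0.0359). The Cd160 call is fragile: its adjusted p ranged from 0.0118 to 0.128 over the alternatives, and it was lost without any 1 of the Mdm2ASO libraries or without conASO replicate 2, 4 or 5, with no filter and in DESeq2. Ctla4, Lag3, Tigit, Cd96, Klrc1 and Klrg1 did not pass, Lag3 at 33.9 ± 12.3 in Mdm2ASO and 43.4 ± 12.1 in conASO livers. Among T and NK cell markers, 4 of 11 rose, with a median log2 fold change of 0.77. Of the B cell markers 6 of 7 rose, with a median of 1.41, and the median of the neutrophil markers was 2.91. The part of any of these cells in the values above was not tested.

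Ligands of inhibitory receptors split in direction on HFHC: of 21, 6 rose and 5 fell, with a median log2 fold change of 0.30. Selplg, a leukocyte glycoprotein that binds selectins and, at low pH, VISTA, averaged 1621 ± 96.4 in Mdm2ASO and 149.8 ± 26.3 in conASO livers (log2 fold change 3.45 ± 0.14, adjusted p = 2.27e-07). Cd48, the ligand of Cd244a, averaged 782 ± 40.1 in Mdm2ASO and 105 ± 21.9 in conASO livers (log2 fold change 2.92 ± 0.16, adjusted p = 1.15e-06). Lgals3, galectin-3, which binds LAG-3, averaged 2233 ± 108 in Mdm2ASO and 911 ± 138 in conASO livers (log2 fold change 1.30 ± 0.11, adjusted p = 2.74e-05). Igsf11, an adhesion molecule whose human form binds VISTA, averaged 543 ± 23.6 in Mdm2ASO and 1159.8 ± 136 in conASO livers (log2 fold change -1.09 ± 0.097, adjusted p = 2.94e-05). It fell on CDAHFD as well, to 718 ± 76.5 in Mdm2ASO against 1547 ± 129 in conASO livers (n = 5 each; log2 fold change -1.11 ± 0.090, adjusted p = 2.33e-05), and the difference between the diets was -0.020 ± 0.13 (adjusted p = 0.937). The other 4 that fell on HFHC were Cd200, Vtcn1, Nectin2 and Pvr, at log2 fold changes of -1.64 (adjusted p = 0.0116), -1.56 (0.0458), -0.66 (2.47e-04) and -0.41 (0.00454). Cd200 is the ligand of the myeloid receptor CD200R1, Vtcn1 encodes B7-H4, and Nectin2 and Pvr encode ligands of TIGIT and CD96. The Vtcn1 call on HFHC was lost without Mdm2ASO replicate 6-7 or 9, without conASO replicate 1, 4 or 5, with a pseudocount of 0.1, with no filter and in edgeR, its adjusted p ranging from 0.0177 to 0.146. The MHC class I genes H2-K1, H2-D1 and H2-T23, whose products bind Pirb or NK receptors, did not pass on HFHC, at -0.077, 0.11 and 0.088.

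Of 9 genes of ITIM signalling, 7 rose and 1 fell on HFHC, with a median log2 fold change of 1.55. Ptpn6, the SHP-1 phosphatase recruited by most ITIM receptors, averaged 3012 ± 341 in Mdm2ASO and 608 ± 49.2 in conASO livers (log2 fold change 2.30 ± 0.098, adjusted p = 3.12e-07). Inpp5d, the leukocyte lipid phosphatase SHIP-1, averaged 919 ± 75.2 in Mdm2ASO and 219 ± 21.3 in conASO livers (log2 fold change 2.07 ± 0.10, adjusted p = 7.96e-07). Dok3, an inhibitory adaptor of myeloid and B cells, averaged 1043 ± 87.1 in Mdm2ASO and 95.6 ± 14.6 in conASO livers (log2 fold change 3.45 ± 0.13, adjusted p = 1.78e-07). Pag1, a membrane adaptor that holds the kinase Csk, averaged 399 ± 13.8 in Mdm2ASO and 141 ± 10.6 in conASO livers (log2 fold change 1.49 ± 0.10, adjusted p = 4.55e-06). Of the broadly expressed relatives of these phosphatases, Ptpn11 (SHP-2) had a log2 fold change of 0.0053 ± 0.062 (adjusted p = 0.959), and Inppl1 (SHIP-2) had -0.48 ± 0.081 (adjusted p = 0.00184). Of the interferon-γ route that induces Cd274, 3 of 7 genes rose on HFHC: Ifngr1 by 0.92 (adjusted p = 5.18e-04), Jak2 by 0.45 (0.00485) and Jak1 by 0.29 (0.00726), the receptor chain and kinases of the pathway. Irf1, a transcription factor induced by the route, did not pass, at -0.13. Ifng itself averaged 2.87 ± 1.61 in Mdm2ASO and 0.808 ± 0.540 in conASO livers and did not pass.

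Many inhibitory receptors have activating relatives with a like extracellular part, and of 22 such genes and their adaptors 17 rose and 0 fell on HFHC, with a median log2 fold change of 2.36. Fcer1g, the signalling chain shared by Fc receptors and the activating Pira receptors, averaged 6061 ± 393 in Mdm2ASO and 403 ± 57.2 in conASO livers (log2 fold change 3.92 ± 0.11, adjusted p = 7.18e-08). Cd300c2, an activating member of the Cd300 family, averaged 1185 ± 84.0 in Mdm2ASO and 189 ± 31.3 in conASO livers (log2 fold change 2.66 ± 0.13, adjusted p = 6.48e-07). Sirpb1c, an activating relative of Sirpa, averaged 441 ± 51.1 in Mdm2ASO and 24.5 ± 2.24 in conASO livers (log2 fold change 4.14 ± 0.15, adjusted p = 1.66e-07). Sirpb1b, another relative of Sirpa, averaged 219 ± 21.2 in Mdm2ASO and 9.74 ± 2.55 in conASO livers (log2 fold change 4.45 ± 0.24, adjusted p = 1.15e-06). The Sirpb1, Pira and Pilrb genes have near-identical copies, so the split of reads within each family is uncertain. Taken as sums, Sirpb1a, Sirpb1b and Sirpb1c together were 45.6 to 50.2% of Sirpa by normalized count in Mdm2ASO libraries and 3.18 to 4.94% in conASO libraries on HFHC, without overlap. The sum of the Pira genes matched (Pira1, Pira2, Pira6 and Pira11) was a lower share of Pirb in Mdm2ASO libraries, at 4.12 to 4.80% against 8.38 to 12.7% in conASO libraries. The Pira sum itself was higher, averaging 141 ± 27.3 in Mdm2ASO and 28.4 ± 8.40 in conASO libraries (SD). In the Cd300 family, Cd300lb, Cd300ld and Cd300c2 together overlapped between the groups relative to Cd300a, at 201 to 233% of it in Mdm2ASO and 209.9 to 230.5% in conASO libraries. On CDAHFD the ranges of these ratios overlapped between the groups: the Sirpb1 sum was 3.03 to 17.5% of Sirpa in Mdm2ASO and 2.33 to 3.22% in conASO libraries, and the Pira sum 1.24 to 6.63% of Pirb in Mdm2ASO and 2.93 to 6.22% in conASO libraries. Cd300lf was 70.5 to 141% of Cd300a in Mdm2ASO and 38.8 to 71.6% in conASO libraries on that diet, Lilrb4b 177 to 368% of Lilrb4a in Mdm2ASO and 181 to 273% in conASO libraries, and Cd47 80.9 to 203% of Sirpa in Mdm2ASO and 88.3 to 158% in conASO libraries. Members enter each of these ratios, which are descriptive.

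On CDAHFD 2 of 84 list genes rose and 5 fell, against 6.12% and 6.86% of all genes, and 0 of them were other inhibitory receptors, lymphocyte checkpoints or activating counterparts. Means are ± SD with n = 5 libraries each. Inppl1, the lipid phosphatase SHIP-2, averaged 1984 ± 197 in Mdm2ASO and 1533 ± 139 in conASO livers (log2 fold change 0.37 ± 0.089, adjusted p = 0.0157). That is opposite to its direction on HFHC. Ptpn11, the SHP-2 phosphatase, averaged 1006 ± 79.3 in Mdm2ASO and 1297 ± 166 in conASO livers (log2 fold change -0.36 ± 0.095, adjusted p = 0.0222). H2-D1, an MHC class I gene, averaged 27545 ± 2339.6 in Mdm2ASO and 35983 ± 2759.6 in conASO livers (log2 fold change -0.39 ± 0.10, adjusted p = 0.0257). Ifngr2, the second chain of the interferon-γ receptor, averaged 628 ± 65.5 in Mdm2ASO and 873 ± 163 in conASO livers (log2 fold change -0.46 ± 0.12, adjusted p = 0.0247). Cd276, the B7 family ligand B7-H3, averaged 84.2 ± 34.4 in Mdm2ASO and 156 ± 47.7 in conASO livers (log2 fold change -0.93 ± 0.28, adjusted p = 0.0448). Vtcn1, the B7 family ligand B7-H4, which epithelia can express, averaged 48.3 ± 18.7 in Mdm2ASO and 23.3 ± 3.94 in conASO livers (log2 fold change 0.96 ± 0.30, adjusted p = 0.0472). Apart from Inppl1 and Igsf11, these calls depend on single libraries. Over the alternatives the adjusted p ranged from 0.0069 to 0.0567 for Ptpn11, 2.88e-04 to 0.0746 for H2-D1, 0.00561 to 0.0671 for Ifngr2, 0.0129 to 0.105 for Cd276 and 0.00631 to 0.11 for Vtcn1. Those 5 calls were all lost without conASO replicate 2, and all but that of Ptpn11 without Mdm2ASO replicate 8 or conASO replicate 4. Those of Cd276 and Vtcn1 were also lost without Mdm2ASO replicate 6 or conASO replicate 3 or 5, that of Vtcn1 without Mdm2ASO replicate 10 or conASO replicate 1, that of H2-D1 without Mdm2ASO replicate 6, and those of Cd276 and Ifngr2 without Mdm2ASO replicate 7. The count of genes that fell was 11 without Mdm2ASO replicate 10, 8 without conASO replicate 1, 3 without Mdm2ASO replicate 7, 2 without Mdm2ASO replicate 8 or conASO replicate 4, and 1 without conASO replicate 2. The count that rose was 1 without Mdm2ASO replicate 6, 8 or 10 or without conASO replicate 1, 2, 4 or 5.

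The difference between diets, the CDAHFD effect minus the HFHC effect, passed the threshold as negative for 51 of 84 list genes and as positive for 4, against 13.6% and 9.83% of all genes. The median over the 84 genes was -1.23 against 0.0063 over all genes. The smallest adjusted p-values belonged to Ptpn6 (-2.35 ± 0.16, adjusted p = 4.98e-08), Cd300lf (-5.03 ± 0.40, 1.73e-07) and Fcer1g (-4.15 ± 0.36, 3.54e-07). Ptpn6 averaged 829.4 ± 116 in Mdm2ASO and 857 ± 106 in conASO livers on CDAHFD, Cd300lf 168 ± 83.5 and 128 ± 30.2, and Fcer1g 675 ± 297 and 738 ± 129 (SD, n = 5 each), with no call in any of them. The 4 positive differences past the threshold were 2.51 ± 0.57 for Vtcn1 (adjusted p = 0.00355), 2.00 ± 0.46 for Cd200 (0.00372), 0.85 ± 0.13 for Inppl1 (7.63e-05) and 0.58 ± 0.15 for Nectin2 (0.00739). By list, the difference was negative and past the threshold for 12 of 18 other inhibitory receptors, 15 of 21 activating counterparts, 8 of 9 ITIM signalling genes, 5 of 6 interferon-γ route genes, 4 of 9 lymphocyte checkpoints and 7 of 21 ligands.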

How the data were processed

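Bulk liver mRNA of 18 samples was measured with strand-specific libraries, per the labels. The deposited values are signal: read counts divided by TMM factors by the authors, as the tables' own names say, in 1 table per diet. Per the submitters' processing notes, GRCm39, STAR 2.7.10b and featureCounts of Subread 2.0.3 were used. Reads and their gene assignment were not re-examined, and reads shared by near-identical genes could be split between them. The values were whole multiples of 1 step per library within 0.001, which gave back the read counts. Of the value columns, 0 belonged to other series. A pair of libraries with identical values was used once, since every other pair of libraries within a group differed in at least 18001 genes.

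Values were taken as log2(value + 0.5), so fold changes of scarce genes are understated. To be tested, a gene needed a value of 1 or more in a number of libraries equal to the smaller group. The test was made with limma-trend (limma 3.58.1 in R 4.3.3), by Benjamini-Hochberg over all genes. The diets were compared by the interaction contrast only. Alternatives were a pseudocount of 1 or 0.1, no filter, a value of at least 10, quantile normalization, edgeR 4.0.16 and DESeq2 1.42.0 on the recovered reads, leaving out each library, and a replicate block. The fits were tested on simulated data. Levels per kb used GENCODE M21 exonic lengths on GRCm38.

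The members and all lists were chosen with earlier results of these data known. Genes named from a list were the up to 4 of smallest adjusted p per list and diet with a mean of at least 10 in 1 group, and the 3 of smallest adjusted p for the difference. Pira7, Pira12, Pira13, Trac and Fcn3 had no row of that symbol and are not used here, and Hbb-bs was matched by its gene ID. Vsig4 and Fn1 stand both among the ligands and in a marker list. Confidence intervals of read counts are exact Poisson intervals.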

Additional observations from a re-analysis of the deposited data

Results flagged for a closer look

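In conASO livers on CDAHFD, replicate 1 lay apart below the other 4 libraries in several genes that leukocytes express. Its normalized counts were 177 for Vsir, 1356 for Sirpa, 233 for Pirb, 197 for Cd300c2, 4.29 for Sirpb1b and 1973 for Jak1. Replicate 2 of the same group was apart on the high side for Igsf11 (1774) and Ptpn11 (1589.8). In conASO livers on HFHC, replicate 1 was apart for Cd160 (10.3), Ptpn11 (1442), Sirpb1c (27.9) and, on the low side, Mdm2 (907), and replicate 5 for Btla (32.0). Each was marked because the gap to the nearest library was a large share of the group's range. That happened 13 times in 123 groups examined. Chance gives about 1 in 20 for independent groups, but these genes were read in the same libraries. No excess over chance is therefore read from the count.

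Cd47 was higher in every Mdm2ASO library on HFHC and lower in every Mdm2ASO library on CDAHFD, at -1.41 for the CDAHFD effect minus the HFHC effect. Cd47 was chosen from these values, so its difference, past the threshold in the fit, is a description and counts as no test. For list genes and Ptprc the interaction contrast of limma passed an adjusted p of 0.05 in the following, given as the log2 CDAHFD effect minus the HFHC effect. It was -5.03 for Cd300lf, -4.60 for Lilrb4b, -2.59 for Lair1, -3.71 for Clec4a2, -4.48 for Cd244a, -4.36 for Pdcd1, -1.20 for Btla, -3.62 for Selplg. It was also -3.34 for Cd48, -2.0004 for Lgals3, -0.49 for H2-D1, -1.66 for Cd276, -3.05 for Dok3, -2.35 for Ptpn6, -2.10 for Inpp5d, -1.20 for Pag1, -0.37 for Ptpn11. Further values were -4.15 for Fcer1g, -3.83 for Sirpb1c, -3.20 for Cd300c2, -4.35 for Sirpb1b, -1.20 for Ifngr1, -0.53 for Jak2, -0.37 for Jak1, -0.49 for Ifngr2, -3.14 for Ptprc. Positive values were 2.51 for Vtcn1 and 0.85 for Inppl1. These are the list genes named by smallest adjusted p on either diet, and further list genes passed, among them Cd200 at 2.00 and Nectin2 at 0.58.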

How the results depend on the processing

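The count of genes called stayed within 1.5 times its value on HFHC (5331, with 3684 to 5021 without 1 library each) and for the difference between diets (3832, with 3084 to 4029). On CDAHFD it was 2181, with 1232 to 2283 without 1 library each, lowest without conASO replicate 2 (1232) and next without Mdm2ASO replicate 8 (1426). Quantile normalization moved the median log2 fold change of all genes on HFHC to -0.11 and turned the split of calls to 2482 higher and 3725 lower, against 2932 higher and 2399 lower, and for the difference it gave 2440 positive and 1961 negative, against 1606 and 2226. Members called higher on HFHC numbered 9 under all 14 alternatives, without exception the same genes. Members called lower on CDAHFD numbered 2, but 1 with a pseudocount of 0.1 or with no filter on low values, 4 with quantile normalization or DESeq2, and 1 to 4 without 1 library each. List genes called on CDAHFD were 2 higher, but 1 with no filter or with quantile normalization and 1 to 2 without 1 library each, and 5 lower, but 8 with DESeq2 and 1 to 11 without 1 library each. The cause of these shifts was not tested. DESeq2 called 2956 genes on CDAHFD. No named result changed sign. Of the list genes named by smallest adjusted p, 8 of 322 alternative values on HFHC, 27 of 119 on CDAHFD and 0 of 75 for the difference no longer passed. Outside that rule, Siglecf and Vtcn1 on HFHC each lost their call in 8 of 14 alternatives. Replicate numbers are shared only across the diets. Same-numbered libraries had correlations of -0.17 to 0.20 between their deviations from the group means, so the numbers were not taken to pair samples. With the replicate block the difference called 3033 genes, 8 members negative, and 40 list genes negative with 4 positive. At these depths Pdcd1lg2 and Ifng rest on few reads.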
